A study of Mus musculus with 20 samples.

Results

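The genes described here make, break down or sense prostaglandins, together with the activating protein of leukotriene synthesis. They were chosen by name, with earlier results of these data known. The list was Ptgs1, Ptgs2, Ptges, Ptgis, Hpgd, Ptger1, Ptger2, Ptger3, Ptger4 and Alox5ap, and all probe sets annotated to those symbols were taken. Of these 10 genes, 8 had a named probe set and all 8 passed the filter on dim values, out of 21423 named genes on the array and 16739 that were tested. The annotation used here named no probe set for Ptgs1 or Ptger1, so neither was analysed here. RNA came from the middle colon of 20 mice, all female C57BL/6JOlaHsd of about 11 weeks, 4 in each of 5 groups, and each array held the total RNA of 1 mouse. The cyclosporine colitis group drank 3% dextran sulfate sodium (DSS) for 5 days and received 25 mg/kg cyclosporine by mouth daily from day 1 to day 15, suspended in methocel. The probiotic colitis group drank DSS and was given the bacterial strains L930BB and IM386 in saline by stomach tube before and during it. The untreated colitis group drank DSS and received saline. The probiotic healthy group received both strains without DSS, and the untreated healthy group received saline without DSS. DSS injures the colonic lining and causes colitis, and cyclosporine blocks calcineurin and T cell activation. No healthy mice given cyclosporine were among the samples, so cyclosporine alone could not be set apart from DSS in comparisons with healthy mice. Cyclosporine was given in methocel and the other colitis groups received saline, so drug and vehicle cannot be told apart in comparisons between colitis groups. Mice were housed 5 to a cage and the labels do not place mice in cages, so effects of cage could not be examined.

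Prostaglandins are lipid signals made from arachidonic acid, which phospholipases release from membranes. A cyclooxygenase (Ptgs1, present in many tissues, or Ptgs2, the inducible form) makes the common precursor, and end synthases turn it into prostaglandin E2, prostacyclin and others. In the colon, prostaglandin E2 acts through 4 related receptors on epithelium, muscle and immune cells and is known for its part in mucosal repair and pain, until the dehydrogenase Hpgd inactivates it. Leukotrienes are made from the same arachidonic acid along a separate branch.

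The promoters of 3 members are shown because Ptgs2 had the widest range of group means, while Hpgd and Ptger3 were the members whose differences between the colitis groups held under every alternative tried. The sequences are RefSeq's on GRCm38.p6, from 250 bases before to 50 after the start of the gene, and 7 of the 10 genes had an entry. Capitals mark matches to motifs searched on both strands, which were the cyclic AMP response element half-site TGACG, the E-box CACGTG, the C/EBP-type letters TTGCNNAA, the TATA box TATAAA, the GC box GGGCGG and the NF-kB motif. The windows are chr1:150099781-150100080 for Ptgs2, chr8:56294302-56294601 for Hpgd and chr3:157566626-157566925 for Ptger3, all on the plus strand.
Ptgs2: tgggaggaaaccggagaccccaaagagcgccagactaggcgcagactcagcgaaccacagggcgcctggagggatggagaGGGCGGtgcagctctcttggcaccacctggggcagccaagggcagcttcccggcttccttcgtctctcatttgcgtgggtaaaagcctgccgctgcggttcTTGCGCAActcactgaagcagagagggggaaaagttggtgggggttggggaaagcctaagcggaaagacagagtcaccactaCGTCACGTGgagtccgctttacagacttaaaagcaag
Hpgd: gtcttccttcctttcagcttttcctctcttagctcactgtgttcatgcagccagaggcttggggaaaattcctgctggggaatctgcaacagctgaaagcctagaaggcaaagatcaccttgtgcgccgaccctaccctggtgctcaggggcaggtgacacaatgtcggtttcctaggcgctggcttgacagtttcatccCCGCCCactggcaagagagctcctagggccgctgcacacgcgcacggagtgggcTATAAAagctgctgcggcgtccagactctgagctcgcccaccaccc
Ptger3: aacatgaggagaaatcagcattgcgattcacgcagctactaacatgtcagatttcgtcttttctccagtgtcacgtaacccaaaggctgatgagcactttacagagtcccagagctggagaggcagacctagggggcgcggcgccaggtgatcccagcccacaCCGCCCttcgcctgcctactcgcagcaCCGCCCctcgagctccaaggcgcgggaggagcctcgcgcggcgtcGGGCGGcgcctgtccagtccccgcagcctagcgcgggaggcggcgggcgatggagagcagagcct
In the Ptgs2 window a GC box began at base -170 from the start, a C/EBP-type match at -69, and a half-site at +14 shared bases with an E-box at +17. The Hpgd window held a GC box at -50 and a TATA box at +5. The Ptger3 window held 3 GC boxes, at -87, -60 and -15. Of 32851 promoter windows of the same length, 20.8% held the half-site, 7.15% the E-box, 10.8% the C/EBP-type letters, 13.6% the TATA box, 35.7% the GC box and 8.46% the NF-kB motif. Positions count from RefSeq's start of the gene, which was not checked against measured starts of transcription. A match at a plus position may therefore lie before the start that the colon uses. These matches are descriptions of letters, and binding was not measured.

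Ptgs2 and Alox5ap were higher in colitis than in healthy colon in both untreated and probiotic mice, and Hpgd and Ptger3 were lower. In untreated mice the calls of Ptgs2, Alox5ap and Ptger3 were each lost in 6 of 8 runs with 1 array left out. In cyclosporine colitis, Hpgd and Ptger3 were higher than in either other colitis group. Of the 8 genes, 3 were higher and 2 lower in untreated colitis than in untreated healthy colon, where 26.1% of all tested genes passed (11.7% higher and 14.4% lower). Those 5 calls fell to between 1 and 3 when any 1 of the 4 untreated healthy mice or untreated colitis mouse 5, 7 or 10 was left out, with Hpgd called each time. In probiotic colitis against probiotic healthy colon, 3 were higher and 2 lower, against 29.7% of all tested genes (13.6% higher and 16.1% lower). Cyclosporine colitis against untreated healthy colon had 1 higher gene, where 6.02% of all tested genes passed (2.64% higher and 3.38% lower). Cyclosporine colitis against untreated colitis had 2 higher genes, where 13.2% passed (7.58% higher and 5.58% lower). Cyclosporine colitis against probiotic colitis had 2 higher and 3 lower genes, where 23.2% passed (11.3% higher and 12.0% lower). In probiotic against untreated colitis limma called 0 of the 8 genes, with 2 at an unadjusted p under 0.05, and 2.80% of all tested genes passed (2.13% higher and 0.669% lower). In probiotic against untreated healthy colon limma called 0 of the 8 genes, with 3 at an unadjusted p under 0.05, and 0% of all tested genes. Passing means an adjusted p under 0.05 in limma's moderated test with Benjamini-Hochberg adjustment over the 16739 tested genes. The 3 comparisons between colitis groups share arrays, and the 3 comparisons with untreated healthy colon share that group, so their values are given side by side. Values are log2 array expression, on which a difference of 1 is a doubling, and they are listed in the order of the mouse numbers. Probe sets bind differently, so levels are compared between groups and not between genes.

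**Figure D1:**
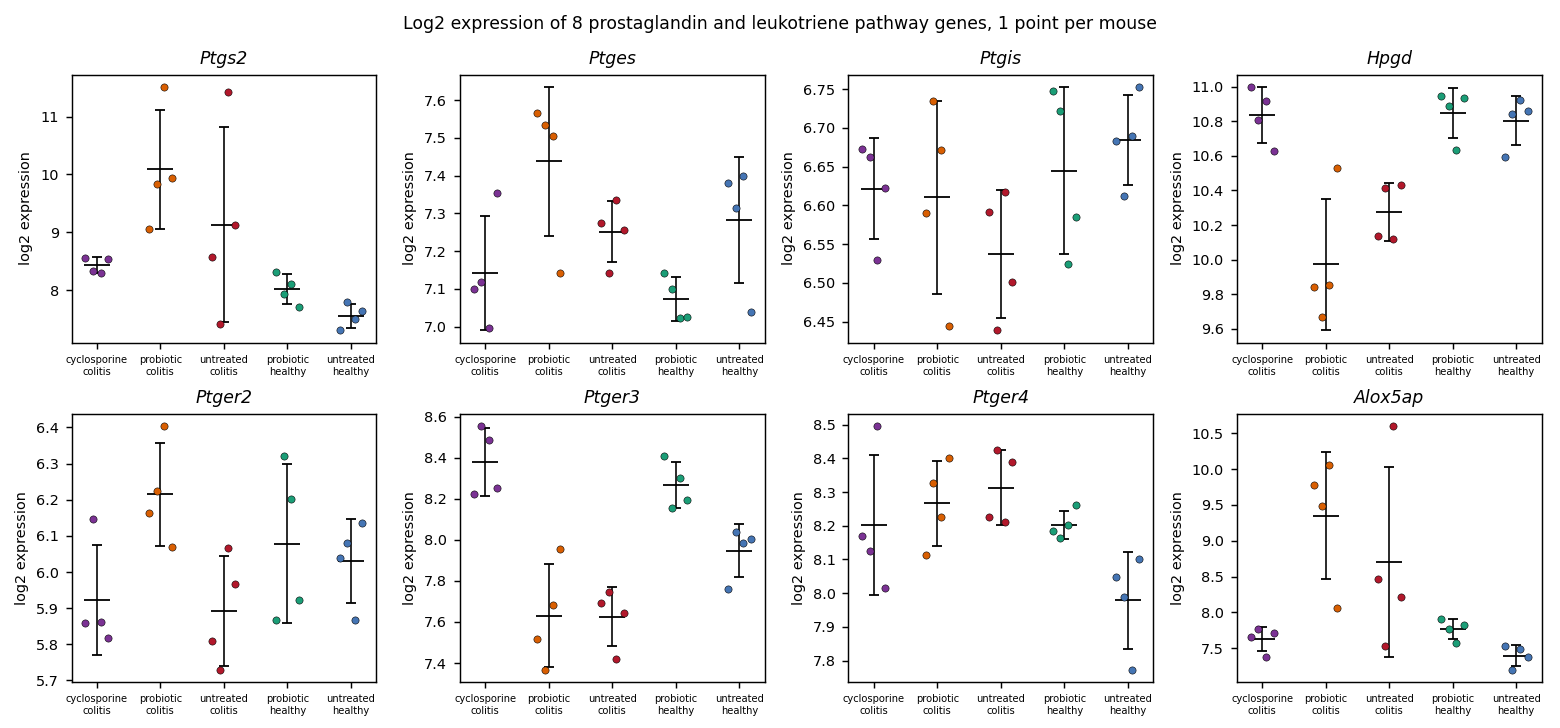
Log2 expression (y axis) of the 8 genes in the 5 groups (x axis), with 1 point per mouse, the group mean as a bar and the SD as whiskers. Ptgs2 and Alox5ap spread widely in probiotic and untreated colitis, with 1 untreated colitis mouse at 11.42 for Ptgs2 and 10.60 for Alox5ap, while Hpgd and Ptger3 sit high in all 4 cyclosporine colitis mice.

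The arrays agreed in their overall level, with median log2 values of 6.22 to 6.29 and correlations between arrays of 0.926 to 0.993. Markers of colon epithelium were bright in every group, with group means of 11.09 to 12.83 for Car1 and 10.68 to 10.82 for Vil1. On principal components 3 arrays stood apart from their groups, namely probiotic colitis mouse 8, untreated colitis mouse 6 and untreated healthy mouse 2, and results that turn on them are given with and without them. The median change over all tested genes lay between -0.04 and 0.01 in every comparison.

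Ptgs2, the inducible cyclooxygenase, was the synthesis gene with the widest range. It was 8.56, 8.33, 8.29 and 8.54 in cyclosporine colitis mice 4, 7, 9 and 10, 9.06, 9.83, 11.52 and 9.94 in probiotic colitis mice 3, 5, 7 and 8, and 8.56, 7.41, 11.42 and 9.12 in untreated colitis mice 5, 6, 7 and 10. It was 8.32, 7.93, 8.11 and 7.70 in probiotic healthy mice 4, 5, 6 and 7, and 7.30, 7.79, 7.50 and 7.64 in untreated healthy mice 2, 4, 6 and 7. Untreated colitis mouse 6 lay inside the untreated healthy range, and the other 3 untreated colitis mice lay above it. Every probiotic colitis mouse lay above every probiotic healthy mouse and every cyclosporine colitis mouse. The means in descending order were 10.09 ± 1.03 in probiotic colitis, 9.13 ± 1.69 in untreated colitis, 8.43 ± 0.14 in cyclosporine colitis, 8.01 ± 0.26 in probiotic healthy and 7.56 ± 0.21 in untreated healthy colon (SD, n = 4 each), and each pair of neighbours in that order overlapped. Untreated colitis was 2.97-fold above untreated healthy colon (log2 change 1.57 ± 0.57 SE, limma adjusted p = 0.0472). Leaving out untreated colitis mouse 7 left a change of 0.81 with an adjusted p of 0.176. Leaving out untreated colitis mouse 10 or any 1 of the 4 untreated healthy mice also ended the call (adjusted p from 0.0664), as did testing all genes without the filter, trend and robust settings, or fitting those groups alone (adjusted p of 0.0567, 0.0759 and 0.132 in that order), and it was kept at 2.06 without the 3 arrays that stood apart (adjusted p = 0.0139). Probiotic colitis was 4.21-fold above probiotic healthy colon (2.07 ± 0.57 SE, limma adjusted p = 0.00883). Cyclosporine colitis was below probiotic colitis by a log2 change of -1.66 ± 0.57 SE (limma adjusted p = 0.0403), a call lost without probiotic colitis mouse 5 or 7 or any 1 of the 4 cyclosporine colitis mice (adjusted p of 0.0604 to 0.161), and under trend and robust settings (adjusted p = 0.0667). Cyclosporine colitis differed from untreated healthy colon by 0.87 ± 0.57 SE without passing (limma adjusted p = 0.361), although its 4 mice all lay above the untreated healthy mice, and it passed when those groups were fitted alone (adjusted p = 0.00389). Probiotic colitis differed from untreated colitis by 0.96 ± 0.57 SE, which did not pass (limma adjusted p = 0.397), and became 1.72 and passed without untreated colitis mouse 7 (adjusted p = 0.0266). Cyclosporine colitis differed from untreated colitis by -0.70 ± 0.57 SE (limma adjusted p = 0.457), and by 0.07 without that mouse.

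Ptges, the inducible prostaglandin E synthase that follows the cyclooxygenase, was measured at 7.57, 7.53, 7.51 and 7.14 in probiotic colitis and at 7.14, 7.10, 7.02 and 7.03 in probiotic healthy colon. Its values were 7.10, 7.12, 7.00 and 7.35 in cyclosporine colitis, 7.27, 7.14, 7.34 and 7.26 in untreated colitis, and 7.38, 7.31, 7.40 and 7.04 in untreated healthy colon. The 4 probiotic colitis mice lay above the 4 probiotic healthy mice, the lowest of them by less than 0.01. Probiotic colitis was 1.29-fold above probiotic healthy colon (0.36 ± 0.10 SE, limma adjusted p = 0.00788), and cyclosporine colitis was below probiotic colitis by a log2 change of -0.30 ± 0.10 SE (limma adjusted p = 0.0344). That second call was lost without probiotic colitis mouse 3, 5 or 7 or cyclosporine colitis mouse 4, 7 or 9 (adjusted p of 0.0716 to 0.113), and under quantile normalisation (adjusted p = 0.0555) or with those groups fitted alone (adjusted p = 0.0973). Untreated colitis and untreated healthy colon differed by -0.03 ± 0.10 SE (limma adjusted p = 0.856). The difference between the DSS changes of probiotic and untreated mice was 0.40 ± 0.14 SE, with an unadjusted p of 0.0100 and an adjusted p of 0.484 in limma, where 0 of 16739 genes passed and 1446 had an unadjusted p under 0.05. Ptgis, prostacyclin synthase, passed in no comparison, and its group means ran from 6.54 in untreated colitis to 6.68 in untreated healthy colon.

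Hpgd, the dehydrogenase that inactivates prostaglandin E2, was lower in untreated and probiotic colitis than in the matching healthy colon, and its mean in cyclosporine colitis lay between those of the healthy groups. It was 11.00, 10.81, 10.92 and 10.63 in cyclosporine colitis, 9.84, 9.67, 9.86 and 10.53 in probiotic colitis, and 10.14, 10.41, 10.12 and 10.43 in untreated colitis. It was 10.94, 10.89, 10.63 and 10.93 in probiotic healthy colon and 10.59, 10.84, 10.92 and 10.86 in untreated healthy colon. All 4 cyclosporine colitis mice lay above all 8 mice of the other colitis groups, and each of those 8 lay below the mice of its own healthy control group. The means were 10.84 ± 0.16 in cyclosporine colitis, 9.97 ± 0.38 in probiotic colitis, 10.28 ± 0.17 in untreated colitis, 10.85 ± 0.15 in probiotic healthy and 10.80 ± 0.14 in untreated healthy colon (SD, n = 4 each). In descending order only untreated healthy colon and untreated colitis were neighbours without overlap. Untreated colitis was 0.694 times untreated healthy colon (-0.53 ± 0.14 SE, limma adjusted p = 0.0110), and probiotic colitis was 0.545 times probiotic healthy colon (-0.88 ± 0.14 SE, limma adjusted p = 0.000137). Cyclosporine colitis was 1.48-fold above untreated colitis (0.56 ± 0.14 SE, limma adjusted p = 0.0148) and 1.82-fold above probiotic colitis (0.87 ± 0.14 SE, limma adjusted p = 0.000411). Against untreated healthy colon it differed by 0.03 ± 0.14 SE (limma adjusted p = 0.909). Probiotic colitis differed from untreated colitis by -0.30 ± 0.14 SE without passing (limma adjusted p = 0.277), and passed at -0.49 without probiotic colitis mouse 8 (adjusted p = 0.0123), whose Hpgd value was the highest of its group.

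Ptger3, the prostaglandin E2 receptor coupled to the inhibitory G protein, was likewise highest in cyclosporine colitis among the colitis groups. It was 8.23, 8.55, 8.49 and 8.25 in cyclosporine colitis, 7.52, 7.37, 7.68 and 7.96 in probiotic colitis, and 7.69, 7.75, 7.42 and 7.64 in untreated colitis. It was 8.41, 8.16, 8.30 and 8.20 in probiotic healthy colon and 7.76, 8.04, 7.99 and 8.01 in untreated healthy colon. The 4 cyclosporine colitis mice lay above every mouse of the other colitis groups and of untreated healthy colon. Cyclosporine colitis was 1.69-fold above untreated colitis (0.75 ± 0.11 SE, limma adjusted p = 0.000345), 1.68-fold above probiotic colitis (0.75 ± 0.11 SE, limma adjusted p = 0.000197) and 1.35-fold above untreated healthy colon (0.43 ± 0.11 SE, limma adjusted p = 0.0323). Leaving out cyclosporine colitis mouse 7 or 9, or 1 of untreated healthy mice 2, 6 and 7, ended the last of these calls (adjusted p of 0.0548 to 0.101). Probiotic colitis was 0.644 times probiotic healthy colon (-0.63 ± 0.11 SE, limma adjusted p = 0.000283). Untreated colitis was 0.800 times untreated healthy colon (-0.32 ± 0.11 SE, limma adjusted p = 0.0415), and leaving out any 1 of untreated colitis mice 5, 7 and 10 or untreated healthy mice 4, 6 and 7 ended that call (adjusted p of 0.0559 to 0.137), as did testing all genes without the filter (adjusted p = 0.0527). Probiotic and untreated colitis differed by less than 0.01 (limma adjusted p = 0.988). In healthy mice the 4 given the probiotic lay above the 4 that were not, by 0.32 ± 0.11 SE, with an unadjusted p of 0.0111 and a limma adjusted p of 0.425.

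Ptger4, a prostaglandin E2 receptor that raises cyclic AMP, was 8.23, 8.43, 8.21 and 8.39 in untreated colitis and 8.05, 7.99, 7.77 and 8.10 in untreated healthy colon. Those groups did not overlap, and untreated colitis was 1.26-fold higher (0.33 ± 0.10 SE, limma adjusted p = 0.0140), which became 0.27 and did not pass without untreated healthy mouse 6 (adjusted p = 0.0568). Its means were 8.20 ± 0.21 in cyclosporine colitis, 8.27 ± 0.13 in probiotic colitis and 8.20 ± 0.04 in probiotic healthy colon (SD, n = 4 each). Probiotic healthy colon differed from untreated healthy colon by 0.22 ± 0.10 SE with groups that did not overlap (unadjusted p = 0.0292, limma adjusted p = 0.491), and probiotic colitis differed from probiotic healthy colon by 0.06 ± 0.10 SE (limma adjusted p = 0.668). Ptger2, the other receptor that raises cyclic AMP, was 6.16, 6.22, 6.40 and 6.07 in probiotic colitis and 5.81, 5.73, 6.07 and 5.97 in untreated colitis. The lowest probiotic colitis mouse lay just above the highest untreated colitis mouse, and the difference of 0.32 ± 0.11 SE did not pass (limma adjusted p = 0.114). Ptger2 passed in no comparison, although cyclosporine against probiotic colitis, at -0.29 ± 0.11 SE (limma adjusted p = 0.0579), passed without probiotic colitis mouse 8 or cyclosporine colitis mouse 7.

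Alox5ap, the membrane protein that presents arachidonic acid to 5-lipoxygenase, was 7.65, 7.77, 7.38 and 7.71 in cyclosporine colitis, 9.78, 9.49, 10.06 and 8.06 in probiotic colitis, and 8.47, 7.53, 10.60 and 8.22 in untreated colitis. It was 7.91, 7.76, 7.57 and 7.83 in probiotic healthy colon and 7.53, 7.20, 7.49 and 7.37 in untreated healthy colon. Probiotic colitis mice all lay above cyclosporine colitis and probiotic healthy mice, while untreated colitis mouse 6 lay less than 0.01 above the highest untreated healthy mouse. Means were 7.63 ± 0.17 in cyclosporine colitis, 9.35 ± 0.89 in probiotic colitis, 8.70 ± 1.32 in untreated colitis, 7.77 ± 0.14 in probiotic healthy and 7.40 ± 0.15 in untreated healthy colon (SD, n = 4 each). Probiotic colitis was 2.99-fold above probiotic healthy colon (1.58 ± 0.46 SE, limma adjusted p = 0.0126), a call lost at 1.34 without probiotic colitis mouse 7 (adjusted p = 0.0509). Untreated colitis was 2.47-fold above untreated healthy colon (1.31 ± 0.46 SE, limma adjusted p = 0.0406). Leaving out untreated colitis mouse 5 or any 1 of the 4 untreated healthy mice ended that call (adjusted p from 0.0565), as did trend and robust settings, the mean of both probe sets, or fitting those groups alone (adjusted p of 0.0648, 0.102 and 0.112 in that order), and the change was 0.67 without untreated colitis mouse 7 (adjusted p = 0.142). Cyclosporine colitis was 0.303 times probiotic colitis (-1.72 ± 0.46 SE, limma adjusted p = 0.00984) and differed from untreated colitis by -1.08 ± 0.46 SE without passing (limma adjusted p = 0.127), a difference that passed at -1.47 without untreated colitis mouse 6 (adjusted p = 0.0334). Probiotic against untreated colitis, at 0.65 ± 0.46 SE (limma adjusted p = 0.499), passed at 1.28 without untreated colitis mouse 7 (adjusted p = 0.0327). A second, dimmer Alox5ap probe set passed in probiotic colitis against probiotic healthy colon (0.56 ± 0.17 SE, limma adjusted p = 0.0212) and in cyclosporine against probiotic colitis (-0.62 ± 0.17 SE, limma adjusted p = 0.0146). It differed by 0.05 ± 0.17 SE between untreated colitis and untreated healthy colon (limma adjusted p = 0.882), where the brighter probe set passed.

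**Figure D2:**
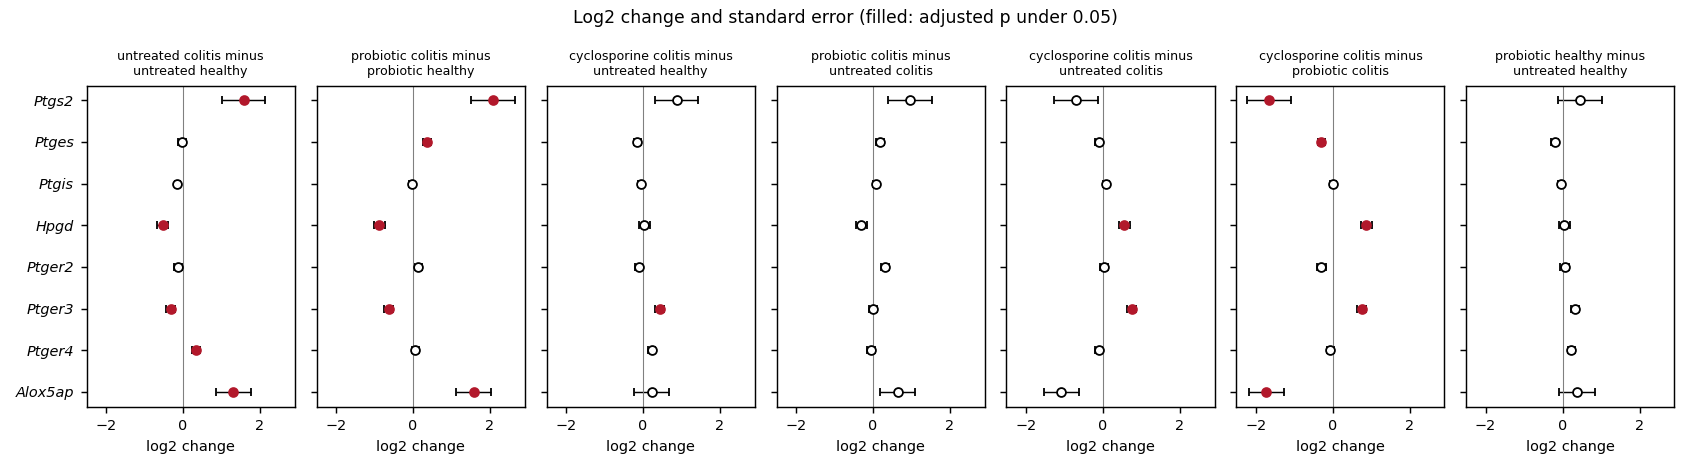
Log2 change (x axis) of the 8 genes (y axis) in 7 comparisons, 1 panel each, with the standard error as whiskers and filled points where the adjusted p was under 0.05. Ptgs2 and Alox5ap lie right of 0 in both comparisons of colitis with healthy colon, and Hpgd and Ptger3 lie right of 0 where cyclosporine colitis is set against the other colitis groups.

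In whole tissue RNA, more cells of a type and more RNA per cell cannot be told apart. Marker lists of other cell types moved with several of these genes. Of all tested genes, 11.7% were higher and 14.4% lower in untreated colitis than in untreated healthy colon. In probiotic colitis 13.6% were higher and 16.1% lower than in probiotic healthy colon, and 2.13% and 0.669% than in untreated colitis. In cyclosporine colitis 11.3% were higher and 12.0% lower than in probiotic colitis, and 7.58% and 5.58% than in untreated colitis. Of 12 neutrophil markers tested, 8 were higher in untreated colitis than in untreated healthy colon, 11 were higher in probiotic colitis than in probiotic healthy colon, and 11 were lower in cyclosporine colitis than in probiotic colitis. Against untreated colitis, 4 of the 12 were lower in cyclosporine colitis. For probiotic against untreated colitis limma called 0 of the 12, at a median log2 change of 0.643. Their summed level, as log2, ran from 11.37 to 11.73 in cyclosporine colitis, 12.27 to 13.26 in probiotic colitis, 12.23 to 13.60 in untreated colitis, 11.09 to 11.34 in probiotic healthy and 11.15 to 11.64 in untreated healthy colon. The highest, 13.60, belonged to untreated colitis mouse 7, which was also the highest untreated colitis mouse for Ptgs2 and Alox5ap. The brightest markers weigh most in a summed level. By the mean log2 level of the same markers, untreated colitis mouse 6, at 6.62, lay inside the probiotic healthy range of 5.99 to 6.65. Probiotic colitis mouse 8, at 6.76, lay just above that range. Of 11 macrophage markers, 5 were higher in untreated colitis than in untreated healthy colon, 9 were higher in probiotic than in untreated colitis, and 8 were lower in cyclosporine than in probiotic colitis. For cyclosporine against untreated colitis limma called 0 of the 11 macrophage markers, at a median log2 change of 0.064. The summed macrophage level ran from 11.91 to 12.37 in cyclosporine colitis, 12.71 to 13.43 in probiotic colitis, 11.73 to 12.78 in untreated colitis, 11.84 to 12.08 in probiotic healthy and 11.64 to 11.69 in untreated healthy colon. Of 11 colonocyte markers, 5 were lower in untreated colitis than in untreated healthy colon and 6 were higher in cyclosporine than in untreated colitis. The summed colonocyte level ran from 15.44 to 15.48 in cyclosporine colitis, 14.80 to 15.06 in probiotic colitis, 14.99 to 15.22 in untreated colitis, 15.51 to 15.59 in probiotic healthy and 15.56 to 15.68 in untreated healthy colon, so cyclosporine colitis lay above the other colitis groups. Of 12 smooth muscle markers, 11 were lower in untreated colitis than in untreated healthy colon and 10 were higher in cyclosporine than in untreated colitis, while limma called 0 of the 12 in cyclosporine colitis against untreated healthy colon, with 0 at an unadjusted p under 0.05. Their summed level ran from 14.48 to 15.12 in cyclosporine colitis, 14.35 to 14.77 in probiotic colitis, 14.36 to 14.67 in untreated colitis, 14.86 to 14.97 in probiotic healthy and 14.95 to 15.07 in untreated healthy colon. Cyclosporine colitis mouse 4, at 14.48, lay inside the untreated colitis range for these markers. A marker dim in healthy colon can pass the filter on dim values through colitis mice, so counts of higher markers may follow in part from the filter. No marker was at 0, since the array gives each probe set a level, and the part of these cell types in the members' values was not tested.

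**Figure D3:**
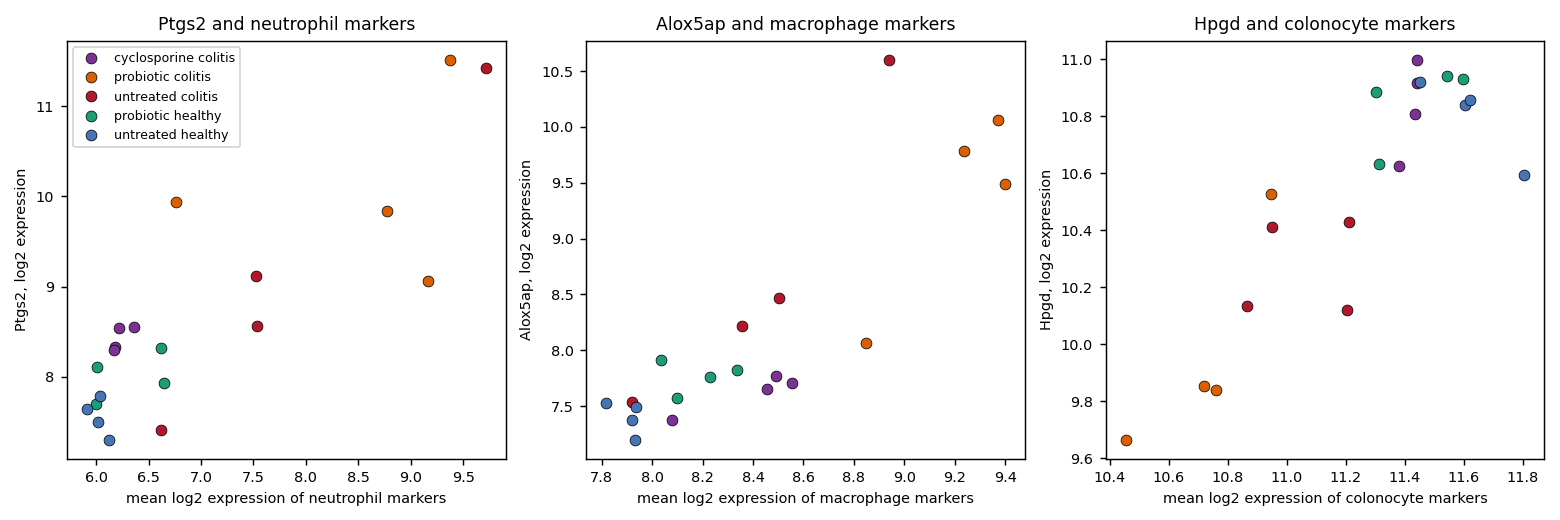
Log2 expression (y axis) of Ptgs2, Alox5ap and Hpgd against the mean log2 level of neutrophil, macrophage and colonocyte markers (x axis), with 1 point per mouse coloured by group. Points of a group share its treatment, so the plots describe where the mice lie and carry no test, and for Ptgs2 probiotic colitis mouse 7, at 11.52, and untreated colitis mouse 7, at 11.42, lie above the other mice.

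Among the other genes of the pathway, 54 of 61 listed were tested. The lists were chosen with earlier results of these data known, so their shares are descriptions and carry no test. In untreated colitis against untreated healthy colon 7 were higher and 9 lower (29.6%), and in probiotic colitis against probiotic healthy colon 14 were higher and 9 lower (42.6%), beside the shares of all genes given above. The 14 include Fpr2, which passed the filter on dim values only through colitis mice, so its place in that count follows in part from the filter. The 16 genes of the first comparison became 11 with those groups fitted alone and 9 without untreated colitis mouse 7. Phospholipases, which free arachidonic acid, had 3 of 17 higher and 1 lower in untreated colitis (11.7% and 14.4% of all tested genes), and 5 higher and 2 lower in probiotic colitis (13.6% and 16.1% of all tested genes), each against its healthy group. Pla2g2a, a secreted phospholipase, was 8.43, 8.45, 9.64 and 9.10 in untreated colitis and 8.34, 6.57, 5.77 and 6.23 in untreated healthy colon, and the untreated healthy mouse at 8.34 was mouse 2. Pla2g2a RNA was 4.52-fold higher in untreated colitis (2.18 ± 0.43 SE, limma adjusted p = 0.00107). It was 5.35-fold higher in probiotic colitis than in probiotic healthy colon (2.42 ± 0.43 SE, limma adjusted p = 0.000278). Whether mice of this strain make a working Pla2g2a enzyme was not examined. Pla2g2d, a secreted phospholipase, and Pla2g7, which breaks down platelet-activating factor, were lower in cyclosporine than in probiotic colitis, by log2 changes of -1.20 ± 0.23 SE (limma adjusted p = 0.00110) and -1.58 ± 0.30 SE (limma adjusted p = 0.00100).

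Tbxas1, thromboxane synthase, was the pathway gene that rose in probiotic over untreated colitis with the smallest adjusted p. It was 7.05, 7.02, 7.07 and 6.85 in probiotic colitis and 6.41, 6.19, 6.39 and 6.29 in untreated colitis, with no overlap. The change was 0.67 ± 0.09 SE (limma adjusted p = 0.00242), and it did not pass when those groups were fitted alone (adjusted p = 0.0994). Hpgds, a prostaglandin D synthase, was 7.989, 8.002, 7.643 and 7.704 in cyclosporine colitis and 7.25, 7.23, 7.26 and 7.22 in untreated colitis, again with no overlap. Its change was 0.59 ± 0.12 SE (limma adjusted p = 0.00257). Cbr1, a carbonyl reductase that can reduce prostaglandin E2, was lower in untreated colitis than in untreated healthy colon (-0.63 ± 0.12 SE, limma adjusted p = 0.000986) and in probiotic colitis than in probiotic healthy colon (-0.83 ± 0.12 SE, limma adjusted p = 4.57e-05), and higher in cyclosporine than in probiotic colitis (0.75 ± 0.12 SE, limma adjusted p = 0.000359).

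Of 6 other transport and breakdown genes, 0 were higher and 3 lower in untreated colitis than in untreated healthy colon. Of all tested genes, 11.7% were higher and 14.4% lower there. Ptgr2, among the 3, lost its call in 3 of the runs with 1 array left out (limma adjusted p of 0.0530 to 0.0584). Slco2a1, the transporter that takes prostaglandins into cells, was 10.48, 10.49, 10.08 and 10.26 in cyclosporine colitis, 9.90, 9.53, 10.04 and 9.74 in untreated colitis and 10.24, 10.46, 10.17 and 10.18 in untreated healthy colon. It was lower in untreated colitis than in untreated healthy colon (-0.46 ± 0.11 SE, limma adjusted p = 0.00445) and higher in cyclosporine than in untreated colitis (0.53 ± 0.11 SE, limma adjusted p = 0.00417), and untreated colitis overlapped neither group. In probiotic colitis against probiotic healthy colon 2 of the 6 were higher and 3 lower, where 13.6% of all tested genes were higher and 16.1% lower. Abcc4, which exports prostaglandins, was among the higher ones (0.34 ± 0.09 SE, limma adjusted p = 0.00674), and Slco2a1 (-0.45 ± 0.11 SE, limma adjusted p = 0.00390) was among the lower. The list of other prostanoid receptors also holds nuclear receptors and a receptor regulator, and both calls in untreated colitis fell on such genes. Of its 7 tested genes 1 was higher and 1 lower in untreated colitis than in untreated healthy colon. These counts lie near the 11.7% and 14.4% of all tested genes. The higher was Ptgfrn, a negative regulator of the prostaglandin F2 receptor, at a log2 change of 0.20. Its call was lost in each of 8 runs with 1 array left out (limma adjusted p of 0.0587 to 0.102). The lower was Ppard, a nuclear receptor for fatty acid ligands (-0.45 ± 0.11 SE, limma adjusted p = 0.00494), and Ppard was also lower in probiotic colitis than in probiotic healthy colon (-0.57 ± 0.11 SE, limma adjusted p = 0.000573).

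Lipoxygenase and leukotriene genes had 6 of 16 higher and 1 lower in probiotic colitis than in probiotic healthy colon, where 13.6% of all tested genes were higher and 16.1% lower, and Fpr2 is among the 6. In untreated colitis against untreated healthy colon 3 of the 16 were higher and 2 lower, near the 11.7% and 14.4% of all tested genes. Cysltr1, a receptor for cysteinyl leukotrienes, was 7.10, 7.32, 7.23 and 7.03 in probiotic colitis and 6.11, 6.54, 6.12 and 6.63 in probiotic healthy colon, without overlap. Its change was 0.82 ± 0.17 SE (limma adjusted p = 0.000819). Fpr2, a formyl peptide receptor that also binds lipoxin, was 4.83, 4.38, 4.46 and 4.57 in cyclosporine colitis and 8.10, 7.32, 7.57 and 5.28 in probiotic colitis. All 4 cyclosporine colitis values lie below the filter level of 5.30, which Fpr2 passed through 3 probiotic and 2 untreated colitis mice, so these values are a description and Fpr2's change is not given. Dpep1, which converts leukotriene D4, was lower in untreated colitis than in untreated healthy colon (-1.07 ± 0.24 SE, limma adjusted p = 0.00327), while Ggt5, which acts on leukotriene C4, was higher (0.54 ± 0.13 SE, limma adjusted p = 0.00512). In cyclosporine against probiotic colitis 1 of the 16 was higher and 7 were lower, Fpr2 among them, where 11.3% of all tested genes were higher and 12.0% lower.

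**Figure D4:**
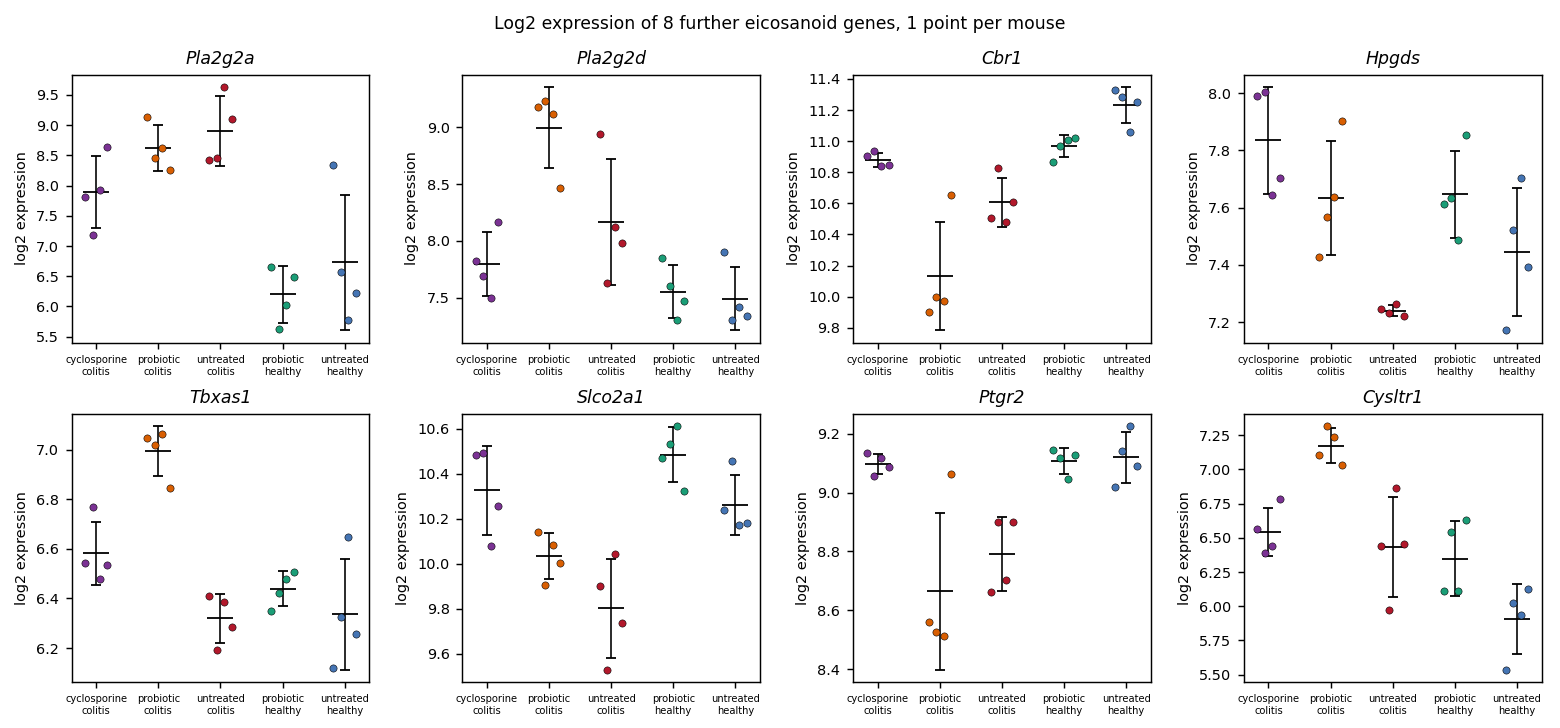
Log2 expression (y axis) of 8 further eicosanoid genes in the 5 groups (x axis), with 1 point per mouse, the group mean as a bar and the SD as whiskers. Tbxas1 sits above 6.8 in all 4 probiotic colitis mice, and Hpgds sits between 7.22 and 7.26 in all 4 untreated colitis mice.

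**Figure D5:**
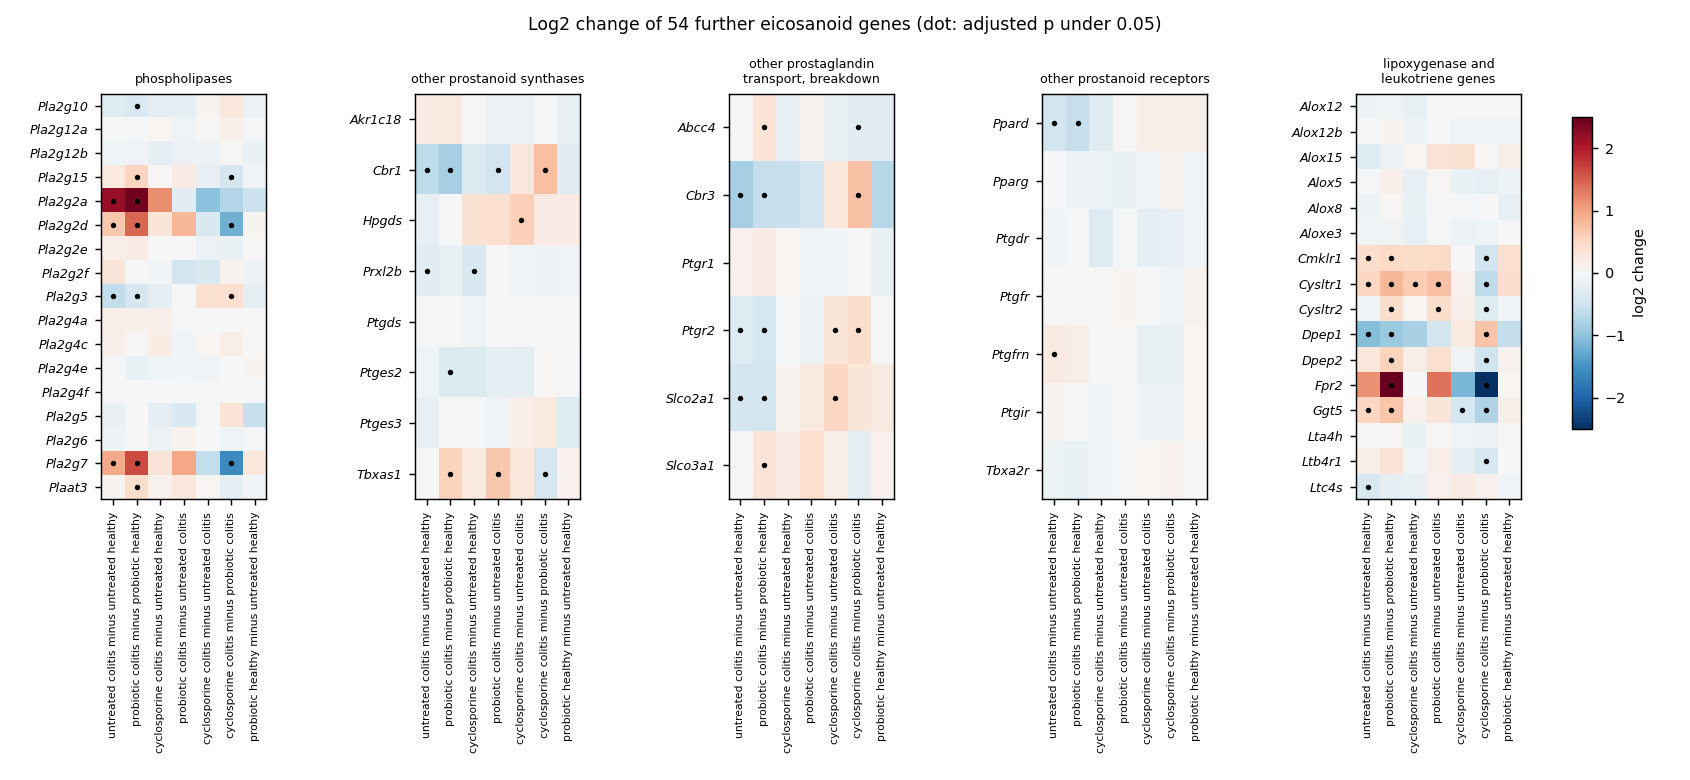
Log2 change (colour, red higher and blue lower) of 54 further genes of the pathway (y axis), in 5 lists, in 7 comparisons (x axis), with a dot where the adjusted p was under 0.05. Dots are most frequent where probiotic colitis is set against probiotic healthy colon, with 14 higher and 9 lower. Fpr2, among the 14, passed the filter on dim values only through colitis mice.

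Ptgs2 and Alox5ap were the members whose group means spanned at least 1 on the log2 scale. Over the 20 arrays, with each gene centred on its own mean, the genes with the smallest root mean square difference from Ptgs2 were Il1r2, a decoy receptor for interleukin 1 (0.529), Plek (0.546) and Lilrb4a (0.567), against a median of 1.21 over all tested genes. For Alox5ap they were Itgam, an integrin of myeloid cells (0.207), Ifitm6 (0.238) and Hdc, the histamine-forming enzyme (0.254), against a median of 0.993. Il1r2 is also in the neutrophil list and Hdc in the mast cell list.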

How the data were processed

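Total RNA of 20 middle colon samples was hybridised to 1 Affymetrix array each. The authors deposited log2 values per probe set that were made with RMA, per the submitters' processing notes; for the RMA version, its settings and the annotation, the sources used here say nothing. RMA corrects background, normalises quantiles and summarises probes, which makes the arrays' distributions alike. Of 41801 probe sets, 29195 had values on every array; 22360 had 1 gene symbol in the platform annotation, 1013 had several and 5822 had none. The brightest probe set stood for its gene, and genes had to exceed 5.30 (the 25th percentile) on at least 4 arrays, which kept 16739 and left out 4684. limma 3.58.1 in R 4.3.3 fitted group means over all 20 arrays (15 residual and 4.03 prior degrees of freedom, eBayes), with Benjamini-Hochberg adjustment over the tested genes; group and mouse number came from the labels. The arrays' number limits the precision, since the files give no counts. The members and lists were chosen with earlier results of these data known. All members were named; of each further list, up to 4 genes with the smallest p in a comparison could be named, and for members whose group means spanned at least 1, the 3 genes with the smallest root mean square difference. The fit was tested on simulated data. Alternatives were no filter, a stricter one (6.60), quantile normalisation, median centring, trend and robust settings, array weights, the mean of probe sets, a replicate block, the compared groups alone, leaving out 3 arrays and leaving out each array. The alternative without the 3 arrays, the dimmer Alox5ap probe set and the further pathway genes were examined with their values known. The mouse numbers were checked for pairing: over 20 pairs of the same number, deviations from group means correlated at -0.185 to 0.433, so the numbers were not used to pair mice.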

Additional observations from a re-analysis of the deposited data

Results flagged for a closer look

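In 45 groups of 4 mice examined (9 probe sets in 5 groups), 3 held a mouse whose gap to the nearest other mouse exceeded the critical share of the group's range, and chance alone marks about 1 in 20 groups. The dimmer Alox5ap probe set was 6.501 in untreated colitis mouse 7, the highest of its group, where the gap was 0.872 of the range. Ptger2 was 6.148 in cyclosporine colitis mouse 7, the highest of its group, with a gap of 0.864 of the range. Ptges was 7.143 in probiotic colitis mouse 8, the lowest of its group, with a gap of 0.856 of the range.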

How the results depend on the processing

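The higher Hpgd and Ptger3 of cyclosporine colitis over either other colitis group, the lower Hpgd of untreated colitis, and the higher Ptgs2 and Ptges and lower Hpgd and Ptger3 of probiotic colitis over their healthy groups passed under every alternative tried. In untreated colitis against untreated healthy colon 5 members passed, but 3 did without a filter, with trend and robust settings or with those groups fitted alone, 2 did with the replicate block, and 1 to 5 did with 1 array left out. In cyclosporine against probiotic colitis 5 passed, with 2 under the replicate block and 3 to 6 with 1 array left out. In cyclosporine colitis against untreated healthy colon 1 passed, with 0 under the replicate block, 2 with those groups alone and 0 to 1 with 1 array left out. In probiotic against untreated colitis 0 passed, with 1 under array weights or without the 3 arrays and 0 to 2 with 1 array left out. Genes called in that last comparison were 468, and became 1682 under array weights, 219 with the replicate block, 0 with the groups alone and 71 to 1223 with 1 array left out. Genes called in cyclosporine colitis against untreated healthy colon were 1008, with 25 under the replicate block, 539 with the groups alone and 371 to 1050 with 1 array left out. Cyclosporine against probiotic colitis called 3890, with 2100 under the replicate block, and cyclosporine against untreated colitis called 2202, with 1119 for the groups alone and 1353 to 2447 with 1 array left out. Probiotic against untreated healthy colon called 0, with 19 for the groups alone, and the interaction called 0, with 5 under array weights, 1 with the replicate block, 13 without the 3 arrays and 0 to 45 with 1 array left out. The replicate block is a check only, since the numbers do not pair the mice; under it Ptgs2, Alox5ap and Ptger3 lost their calls in untreated colitis against untreated healthy colon, as did Ptgs2, Alox5ap and Ptges in cyclosporine against probiotic colitis and Ptger3 in cyclosporine colitis against untreated healthy colon. Values that changed sign never passed. For Ptger3 in probiotic against untreated colitis they were -0.026 with quantile normalisation, -0.0206 with median centring, -0.0708 with array weights, -0.0829 with the replicate block and -0.0633 without the 3 arrays. For Hpgd in cyclosporine colitis against untreated healthy colon they were -0.0152 with array weights, -0.0600 with the replicate block and -0.0358 without the 3 arrays, and for Ptgis in cyclosporine against probiotic colitis -0.00564, -0.00522 and -0.0436 in the same order. For Ptgis in probiotic colitis against probiotic healthy colon they were 0.0205 with the block and 0.0203 without the 3 arrays. Without the 3 arrays Ptges in untreated colitis against untreated healthy colon was 0.038, Ptger2 in cyclosporine against untreated colitis -0.0249, and Hpgd in probiotic against untreated healthy colon -0.0245. Alox5ap in cyclosporine colitis against untreated healthy colon was -0.0259 as the mean of probe sets and -0.281 by the dimmer probe set, which gave -0.217 in probiotic against untreated healthy colon. With 1 array left out, cyclosporine against probiotic colitis ranged from -0.0436 to 0.0528 for Ptgis, and cyclosporine against untreated colitis from -0.0462 to 0.0871 for Ptger2 and from -1.27 to 0.0668 for Ptgs2. Cyclosporine colitis against untreated healthy colon ranged from -0.0358 to 0.105 for Hpgd, and probiotic against untreated colitis from -0.104 to 0.0922 for Ptger3 and from -0.091 to 0.0053 for Ptger4. Probiotic colitis against probiotic healthy colon ranged from -0.076 to 0.0203 for Ptgis, and untreated colitis against untreated healthy colon from -0.113 to 0.0071 for Ptges. Probiotic against untreated healthy colon ranged from -0.0245 to 0.117 for Hpgd, -0.0323 to 0.119 for Ptger2 and -0.0738 to 0.0005 for Ptgis. The interaction ranged from -0.116 to 0.907 for Alox5ap and from -0.073 to 1.27 for Ptgs2. The cause of these changes was not tested.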

Other observations

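Further marker lists were described beside the prostaglandin genes. In probiotic colitis against probiotic healthy colon 13.6% of all tested genes were higher and 16.1% lower. In cyclosporine against probiotic colitis 11.3% were higher and 12.0% lower. Of 12 fibroblast markers 8 were higher in probiotic colitis than in probiotic healthy colon and 8 were lower in cyclosporine than in probiotic colitis, and of 12 endothelial markers 6 were higher and 9 were lower in the same comparisons. Of 10 mast cell markers listed only 6 were bright enough to be tested, and of these 4 were higher and 1 lower in probiotic colitis than in probiotic healthy colon. Of 10 enteric neuron and glia markers 5 were lower in that comparison and 3 were higher in cyclosporine than in probiotic colitis. Of 9 tuft cell markers, epithelial cells known to express prostaglandin synthesis genes, 2 were higher and 2 lower in probiotic colitis than in probiotic healthy colon.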
